A study of Homo sapiens with 27 samples.

Results

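DNA damage checkpoint and repair genes were examined in the RNA-sequencing (RNA-Seq) counts of parental and long-term estrogen-deprived (LTED) breast cancer cells. The list held 36 genes, chosen by name, and all 36 were found among the 60619 Ensembl genes of the deposited count table. This list and the other gene lists below were chosen with earlier results of these data known. Their shares of DE genes therefore describe the lists and are not independent support. MM134 (MDA-MB-134VI) and SUM44 are human cell lines of invasive lobular carcinoma, a breast cancer subtype that grows as single files of cells, and both express the estrogen receptor. MM134 parental cells were compared with 4 LTED variants (A, B, D and E), and SUM44F cells, the serum-adapted culture that the study used as parental cells, with SUM44 LTED-A and SUM44 LTED-B. SUM44PE, the SUM44 culture before that adaptation to serum medium, was another parental group. LTED cells were grown long term in medium with charcoal-stripped serum, which holds little estrogen, as a model of resistance to aromatase inhibitors, and were generated independently of each other. Parental cells were moved to that medium for only 3 days before collection. Each of the 9 groups had 3 libraries, made from wells seeded from 1 culture, so that p-values measure the spread between wells and each variant stands for 1 derivation. Time in the medium, medium history and culture cannot be told apart in these groups.

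Cells respond to a broken or stalled DNA molecule in layers. ATM, activated at double-strand breaks by the MRE11-RAD50-NBN complex, and ATR, activated at stalled replication forks with TOPBP1, phosphorylate the checkpoint kinases and hold the cell cycle. Homologous recombination, led by BRCA1 and BARD1, repairs breaks by copying the sister chromatid and therefore works in S and G2 phase, whereas end joining by the Ku proteins and DNA-PKcs works in every phase. The Fanconi anemia core complex adds ubiquitin to FANCD2 and FANCI when a crosslink blocks a replication fork. Many genes of recombination and of the Fanconi anemia pathway are transcribed most strongly in S phase, several of them through E2F factors, whereas the genes of end joining are less tied to the cycle.

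Library totals ranged from 28583554 to 134882175 estimated counts, and the 36 genes took 0.309% to 0.469% of them. Keratins, EPCAM, ESR1 and GATA3, markers of luminal epithelium, were detected in every library. For SUM44 LTED-A, the counts of replicates 2 and 3 were closer than sampling noise allows for separate libraries, so that both were averaged and counted as 1 sample and n = 2 for this variant. SUM44F replicate 1 stood apart in markers of fibroblasts. COL1A1, COL1A2, COL3A1, DCN and LUM summed to a normalized level (CPM, counts per 1e6 counts) of 339.7 there, against 9.10 and 7.92 CPM in replicates 2 and 3, and its 8 immune markers summed to 9.09 CPM against 2.32 and 2.82. Endothelial markers (PECAM1, CDH5, VWF) summed to 25.3 to 39.3 CPM over the SUM44F libraries, against 3.04 to 4.65 CPM in SUM44 LTED cells. Levels in SUM44F replicate 1 stand first wherever SUM44F libraries are listed below, and the counts of DE genes that rest on SUM44F are given without it as well.

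All genes were tested by edgeR's quasi-likelihood test. A gene was called differentially expressed (DE) when it changed more than 1.5-fold with a Benjamini-Hochberg adjusted p below 0.001 over all genes tested, and all 36 genes passed the filter on low counts in every comparison. Differences are given as log2 fold change ± SE, and levels as CPM after TMM scaling, which corrects for library size and composition but not for gene length. Per kilobase of exon, the level in MM134 parental cells ran from 1.69 CPM for FANCB to 158 CPM for XRCC6. The length used was that of all annotated exons of a gene merged, and the order depends on it. Before this division FANCE (15.4 CPM) lay below FANCB (22.5 CPM).

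The direction and size of the change differed between the cell lines. In SUM44 LTED-A, 17 of the 36 genes (47.2%) were DE and higher than in SUM44F, against 6.39% of the 26834 genes tested, with a median log2 fold change of 0.59 against -0.06 over all genes tested. In SUM44 LTED-B, 18 of 36 were higher, against 8.69% of genes, and the median was 0.59 against -0.09. By edgeR, 0 genes fell in LTED-A (7.28% of all genes) and 0 in LTED-B (8.57%). At an unadjusted p below 0.05, 2 were lower in LTED-A and 0 in LTED-B (44.3% and 52.6% of all genes were under that p in either direction), and DESeq2 called 0 lower in either. Without SUM44F replicate 1 there were 17 such genes in LTED-A and 18 in LTED-B, with the same counts in every role. Both SUM44 variants share the SUM44F libraries, so their values are not independent.

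In MM134 few of the same 36 genes were DE. LTED-A had 1 gene higher (2.78%, against 10.5% of the 26061 genes tested) and 3 lower (8.33%, against 9.82%), and LTED-B had 0 higher (8.11% of genes) and 3 lower (8.33%, against 7.75%). LTED-D had 0 higher (9.63% of genes) and 2 lower (5.56%, against 7.95%), and LTED-E had 1 higher (2.78%, against 8.71%) and 2 lower (5.56%, against 10.3%). These shares lie near or under those of all genes. At an unadjusted p below 0.05 by edgeR, 4, 5, 6 and 11 of the genes were higher and 25, 29, 19 and 16 lower in LTED-A, -B, -D and -E. Of all genes, 56.8%, 53.1%, 55.6% and 55.4% were under that p in either direction. DESeq2 called 0 higher in LTED-B and 0 in LTED-D. The median log2 fold change of the 36 genes was -0.25, -0.24, -0.10 and -0.01 in LTED-A, -B, -D and -E, against -0.01, 0.02, -0.03 and 0.02 over all genes. The spread between MM134 wells was small, and most of these shifts stayed under the 1.5-fold minimum.

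**Figure D1:**
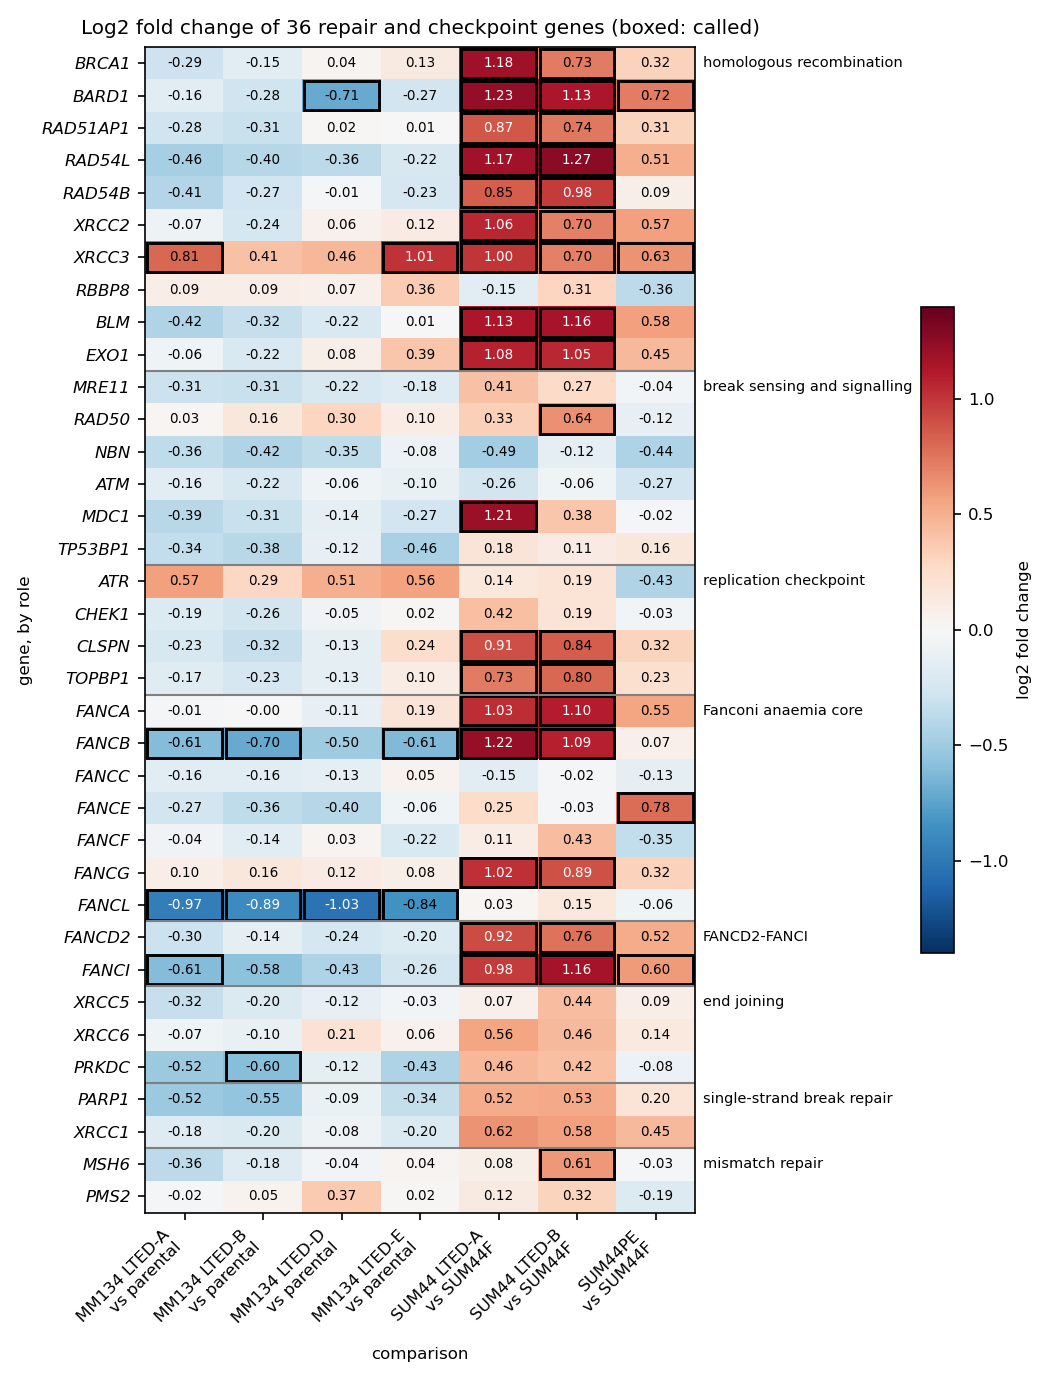
Log2 fold change of each of the 36 genes (vertical axis, grouped by role) in each LTED variant against its parental cells and in SUM44PE against SUM44F (horizontal axis). Red is higher and blue is lower, each cell holds its value, and boxes mark DE genes. The SUM44 LTED columns hold 17 and 18 boxes, 9 in each among the recombination genes, whereas the MM134 columns hold 4, 3, 2 and 3 boxes.

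Homologous recombination genes were the largest share of those that rose in SUM44. Of 10 genes, 9 were higher in LTED-A and 9 in LTED-B (90% each, against 6.39% and 8.69% of all genes), with medians of 1.07 and 0.86. RAD54L, a motor protein that helps the recombinase search for and invade matching DNA, was measured at 5.71, 6.64 and 5.56 CPM in the SUM44F libraries, at 15.5 and 11.9 CPM in LTED-A, and at 15.1, 13.9 and 14.7 CPM in LTED-B. Every LTED library lay above every SUM44F library. The log2 fold change was 1.17 ± 0.14 in LTED-A (adjusted p = 6.35e-05) and 1.27 ± 0.12 in LTED-B (adjusted p = 1.55e-05). RAD54L lies at chr1:46246461-46278480 (hg38), and 19.9% of its exon bases are shared with LRRC41 on the opposite strand, which changed by 0.38 in LTED-A and 0.52 in LTED-B.

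BARD1, the partner of BRCA1 in an E3 ubiquitin ligase (chr2:214725646-214809683), was at 24.5, 24.6 and 27.4 CPM in SUM44F, at 53.1 and 68.5 CPM in LTED-A and at 58.4, 56.3 and 55.2 CPM in LTED-B. It rose by 1.23 ± 0.10 in LTED-A (adjusted p = 5.59e-06) and 1.13 ± 0.09 in LTED-B (adjusted p = 4.36e-06), with no overlap between SUM44F and LTED libraries. BRCA1, which directs broken ends into recombination (chr17:43044295-43170245), was at 36.7, 37.2 and 38.4 CPM in SUM44F, at 82.6 and 90.7 CPM in LTED-A and at 66.6, 62.0 and 60.4 CPM in LTED-B. Its change was 1.18 ± 0.07 in LTED-A (adjusted p = 5.58e-07) and 0.73 ± 0.07 in LTED-B (adjusted p = 7.68e-06). All LTED-A values lay above all LTED-B values, and the test of LTED-B against LTED-A gave -0.45 ± 0.07 (adjusted p = 0.000964), a difference below the 1.5-fold minimum.

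BLM, the helicase that unwinds recombination intermediates (chr15:90717346-90816166), was at 22.4, 22.3 and 22.4 CPM in SUM44F, at 44.6 and 54.9 CPM in LTED-A and at 52.7, 50.1 and 49.0 CPM in LTED-B. EXO1, a nuclease that resects broken ends and also serves mismatch repair (chr1:241847967-241895148), was at 35.3, 35.9 and 36.8 CPM in SUM44F, at 71.8 and 83.1 CPM in LTED-A and at 77.1, 75.8 and 74.0 CPM in LTED-B. Both genes were more than 2-fold higher in each variant, BLM by 1.13 ± 0.09 and 1.16 ± 0.08 and EXO1 by 1.08 ± 0.07 and 1.05 ± 0.07 in LTED-A and LTED-B. RAD54B, a relative of RAD54L, was at 23.9, 23.3 and 25.3 CPM in SUM44F, at 38.4 and 50.2 CPM in LTED-A and at 50.7, 46.1 and 47.8 CPM in LTED-B, a change of 0.85 ± 0.10 and 0.98 ± 0.09. Its exons share 66.0% of their bases with FSBP on the same strand, so that reads of both genes could not be fully separated. FSBP had 3885 counts over all libraries against 63414.5 for RAD54B and changed by -0.86 in LTED-A and -1.41 in LTED-B.

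XRCC2, a paralog of the recombinase, changed by 1.06 in LTED-A and 0.70 in LTED-B, and RAD51AP1, which assists strand invasion, by 0.87 and 0.74. The call of RAD51AP1 was lost in LTED-A without SUM44F replicate 2 (0.86) or without the averaged LTED-A sample (0.64), and in LTED-B without SUM44F replicate 2 (0.72), LTED-B replicate 1 (0.73) or LTED-B replicate 3 (0.73). XRCC3, another paralog, rose by 1.00 and 0.70, and is taken up again with MM134. RBBP8 (CtIP), which starts resection with the MRE11 complex, was the 1 recombination gene that was not DE, at -0.15 ± 0.09 in LTED-A and 0.31 ± 0.08 in LTED-B.

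**Figure D2:**
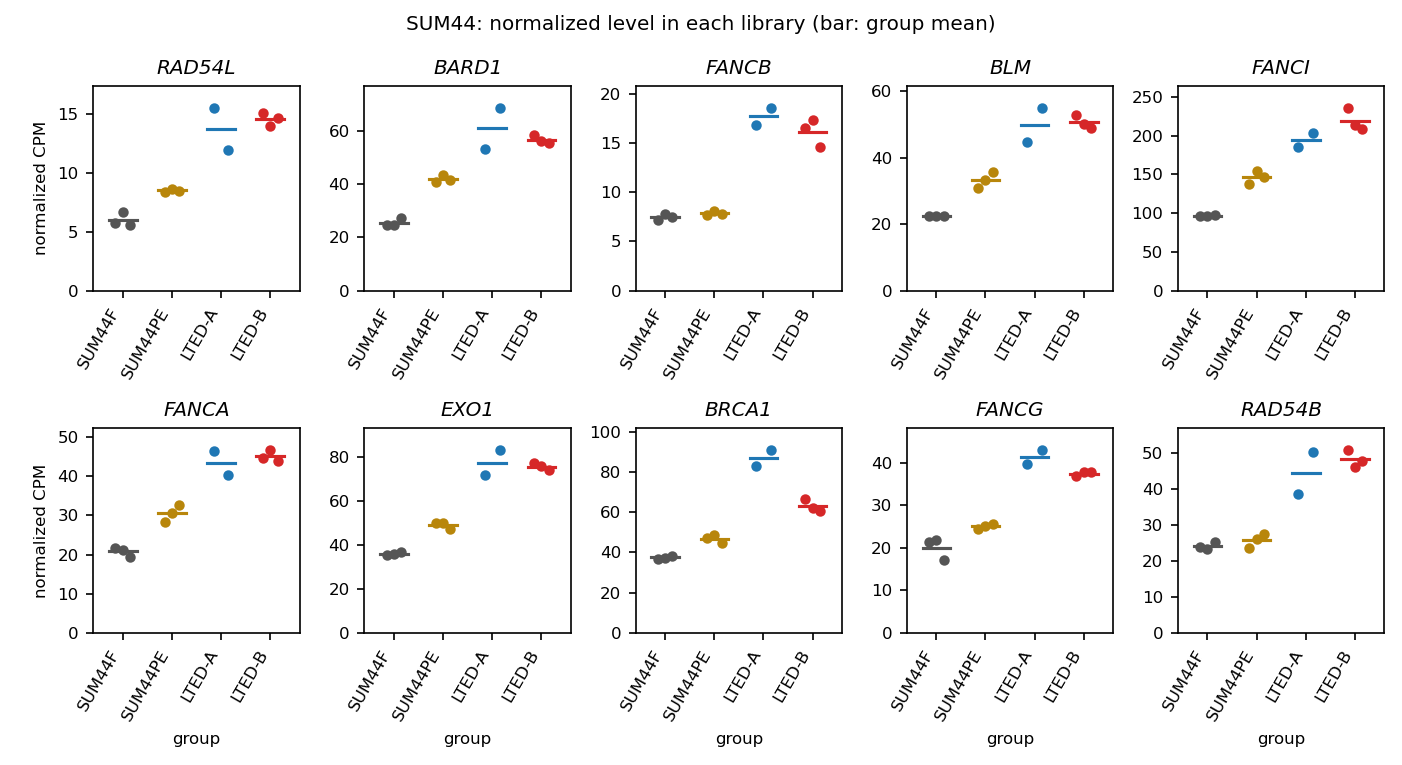
Normalized level (CPM, vertical axis from 0) of the 10 genes with the largest mean change in SUM44, in each library of SUM44F, SUM44PE, LTED-A and LTED-B (horizontal axis). Points are libraries and bars are group means. LTED points lie above all SUM44F points in each panel, and SUM44PE lies between them for most genes but beside SUM44F for FANCB and RAD54B.

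Promoter sequences were read for the 6 genes with the largest mean rise in SUM44 for which the RefSeq promoter table (GRCh38.p14, 250 bases before to 50 after the start) held an entry, to show what lies around the RefSeq start of genes that rose together. The table held 31 of the 36 genes, and had no entry for RAD54B, NBN, FANCI, XRCC5 and PRKDC. Words were searched on both strands: the E2F words TTTCCCGC, TTTCGCGC, TTTGCCGC and TTTGGCGC, the cell cycle homology region (CHR) words TTTGAA and TTCGAA, the CCAAT box CCAAT and the GC box GGGCGG. Capitals in the sequences mark matches to the E2F, CHR and CCAAT words, also where the match is on the reverse strand, and the sequence is written 5′ to 3′ on the strand of the gene.
RAD54L (chr1:46247438-46247737, + strand): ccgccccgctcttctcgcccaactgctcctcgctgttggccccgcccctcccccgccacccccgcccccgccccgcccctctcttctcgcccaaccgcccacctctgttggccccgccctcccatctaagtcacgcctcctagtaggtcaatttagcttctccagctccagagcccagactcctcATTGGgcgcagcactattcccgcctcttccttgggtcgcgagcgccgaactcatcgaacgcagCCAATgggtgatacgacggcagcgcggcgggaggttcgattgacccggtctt
BARD1 (chr2:214809634-214809933, - strand): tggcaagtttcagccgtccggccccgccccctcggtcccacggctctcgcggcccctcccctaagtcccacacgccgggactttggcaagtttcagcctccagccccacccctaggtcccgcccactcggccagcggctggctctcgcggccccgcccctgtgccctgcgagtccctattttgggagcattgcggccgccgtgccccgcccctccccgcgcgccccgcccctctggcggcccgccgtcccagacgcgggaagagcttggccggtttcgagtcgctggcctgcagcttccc
FANCB (chrX:14873020-14873319, - strand): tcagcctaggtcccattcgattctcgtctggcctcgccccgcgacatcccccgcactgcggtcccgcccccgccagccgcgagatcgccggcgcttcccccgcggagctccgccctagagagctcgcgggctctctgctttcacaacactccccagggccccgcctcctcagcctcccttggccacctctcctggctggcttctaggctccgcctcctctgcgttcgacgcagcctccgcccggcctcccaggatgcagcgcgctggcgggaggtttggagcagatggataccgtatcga
BLM (chr15:90717096-90717395, + strand): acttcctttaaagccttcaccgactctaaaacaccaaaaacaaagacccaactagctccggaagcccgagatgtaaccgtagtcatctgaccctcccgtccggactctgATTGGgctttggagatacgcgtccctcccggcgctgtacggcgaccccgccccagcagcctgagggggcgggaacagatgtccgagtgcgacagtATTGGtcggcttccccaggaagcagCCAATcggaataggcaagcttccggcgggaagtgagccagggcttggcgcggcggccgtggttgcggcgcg
FANCA (chr16:89816598-89816897, - strand): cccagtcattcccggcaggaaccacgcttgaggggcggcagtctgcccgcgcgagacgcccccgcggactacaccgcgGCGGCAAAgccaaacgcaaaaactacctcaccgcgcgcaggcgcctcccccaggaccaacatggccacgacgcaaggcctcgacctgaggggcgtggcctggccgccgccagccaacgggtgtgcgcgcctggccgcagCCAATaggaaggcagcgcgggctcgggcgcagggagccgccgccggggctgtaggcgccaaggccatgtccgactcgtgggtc
EXO1 (chr1:241847954-241848253, + strand): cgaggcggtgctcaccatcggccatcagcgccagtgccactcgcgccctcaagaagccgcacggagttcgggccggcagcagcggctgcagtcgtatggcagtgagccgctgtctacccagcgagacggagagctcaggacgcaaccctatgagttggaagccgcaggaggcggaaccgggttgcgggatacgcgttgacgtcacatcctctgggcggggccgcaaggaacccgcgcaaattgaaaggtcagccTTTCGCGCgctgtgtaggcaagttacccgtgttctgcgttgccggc

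EXO1 holds the E2F word TTTCGCGC just after its start (position 4), and FANCA holds TTTGCCGC on the reverse strand upstream of its start (position -172). Positions count from the RefSeq start. The windows of RAD54L and FANCA lie inside the GENCODE spans of these genes, which begin farther upstream. RAD54L, BLM and FANCA hold CCAAT boxes, and BARD1 and FANCB hold none of the E2F, CHR or CCAAT words in this window. Over the 31 genes, 10 held an E2F word (XRCC2, EXO1, CLSPN, TOPBP1, FANCA, FANCC, FANCD2, XRCC6, MSH6 and PMS2), against 3.33% of the 27305 promoters of the table. A CCAAT box was found in 16 of 31 against 35.7%, a GC box in 29 of 31 against 44.6%, and a CHR word in 4 of 31 against 16.6%. Genes with an E2F word were found among those that rose in SUM44 (EXO1, XRCC2, CLSPN, TOPBP1, FANCA and FANCD2, and MSH6 in LTED-B) and among those that were DE in neither variant (FANCC, XRCC6, PMS2). A match is a description of letters and was not tested as a binding site.

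The Fanconi anemia core split in SUM44. FANCA, FANCB and FANCG rose in each variant and FANCC, FANCE, FANCF and FANCL did not. The share higher was 42.9% in each variant, against 6.39% of all genes in LTED-A and 8.69% in LTED-B. FANCB (chrX:14690388-14873255), which forms the catalytic module of the core with FANCL, was at 7.18, 7.75 and 7.45 CPM in SUM44F, at 16.8 and 18.5 CPM in LTED-A and at 16.5, 17.3 and 14.6 CPM in LTED-B. It rose by 1.22 ± 0.10 (adjusted p = 7.45e-06) and 1.09 ± 0.10 (adjusted p = 7.08e-06), with no overlap of libraries. FANCA, a scaffold subunit (chr16:89726683-89816977), was at 21.7, 21.2 and 19.5 CPM in SUM44F, at 46.4 and 40.3 CPM in LTED-A and at 44.7, 46.6 and 43.9 CPM in LTED-B, a rise of 1.03 ± 0.09 and 1.10 ± 0.08. ZNF276, which shares 19.6% of the exon bases of FANCA on the opposite strand, changed by -0.04 and -0.03. FANCG, which binds FANCA (chr9:35073835-35080004), was at 21.3, 21.8 and 17.1 CPM in SUM44F, at 39.8 and 43.0 CPM in LTED-A and at 36.8, 37.9 and 37.7 CPM in LTED-B, a rise of 1.02 ± 0.10 and 0.89 ± 0.09. The other 4 core genes lay between -0.15 and 0.43 over both variants, with FANCL, the E3 ligase itself, at 0.03 ± 0.10 and 0.15 ± 0.09.

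The substrates of that ligase rose together. FANCI (chr15:89243945-89317261) was at 96.0, 96.6 and 97.3 CPM in SUM44F, at 184.6 and 202.9 CPM in LTED-A and at 235.6, 213.0 and 208.9 CPM in LTED-B, with no overlap between SUM44F and LTED libraries. Its change was 0.98 ± 0.08 in LTED-A (adjusted p = 5.08e-06) and 1.16 ± 0.07 in LTED-B (adjusted p = 5.79e-07). FANCD2, its partner in the clamp that closes around DNA, had a mean of 62.4 ± 1.38 CPM in SUM44F against 106.7 ± 3.92 CPM in LTED-B (SD, n = 3 each) and values of 115.8 and 124.2 CPM in LTED-A, and changed by 0.92 in LTED-A and 0.76 in LTED-B.

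Of 4 replication checkpoint genes, CLSPN and TOPBP1 rose and ATR and CHEK1 were not DE. The share higher was 50% of these 4 genes, against 6.39% of all genes in LTED-A and 8.69% in LTED-B. CLSPN, the claspin adaptor that brings CHEK1 to ATR, changed by 0.91 ± 0.10 in LTED-A and 0.84 ± 0.09 in LTED-B, and TOPBP1, the activator of ATR, by 0.73 ± 0.08 and 0.80 ± 0.07. ATR, the kinase, was at 0.14 ± 0.07 and 0.19 ± 0.07, and CHEK1, its effector kinase, at 0.42 ± 0.08 (adjusted p = 0.00144) and 0.19 ± 0.07. In a fit of SUM44F and LTED-A alone, in which the spread rests on fewer libraries, 12 of the 36 genes were DE in LTED-A, and the calls of CLSPN (0.92), TOPBP1 (0.74), RAD51AP1 (0.88), RAD54B (0.86) and MDC1 (1.22) were lost there at nearly the same fold change.

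Of 6 break sensing genes, 1 was DE and higher in each SUM44 variant (16.7%). Of all genes, 6.39% were higher and 7.28% lower in LTED-A, and 8.69% and 8.57% in LTED-B. With 6 genes, 1 call cannot be told from these shares. The medians of the 6 genes were 0.25 in LTED-A and 0.19 in LTED-B. MDC1, the scaffold that gathers repair factors at marked chromatin, rose in LTED-A by 1.21 ± 0.17 (adjusted p = 0.000224). Its LTED-A samples stood apart from each other at 92.1 and 57.3 CPM, against 31.2, 35.2 and 29.0 CPM in SUM44F and 42.9, 42.4 and 40.8 CPM in LTED-B, and the call was lost without SUM44F replicate 3 (1.16, adjusted p = 0.00104 by edgeR). RAD50, the hinge of the MRE11 complex, rose in LTED-B by 0.64 ± 0.07, and in LTED-A its value was 0.33 ± 0.08. RAD50 shares 76.9% of its exon bases with another gene on the same strand, which the count table does not hold. MRE11, the nuclease, was at 0.41 ± 0.09 and 0.27 ± 0.08, and NBN at -0.49 ± 0.12 and -0.12 ± 0.10, so that the 3 subunits did not share a direction. The LTED-A samples of NBN stood apart at 69.8 and 97.8 CPM, both below the SUM44F libraries (112.9 to 120 CPM). Without the averaged LTED-A sample its value there was -0.74. ATM lay at -0.26 and -0.06 and TP53BP1 at 0.18 and 0.11, neither of them DE. TP53BP1 shares 28.8% of its exon bases with TUBGCP4 on the opposite strand, which changed by 0.92 in LTED-A and 0.74 in LTED-B.

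Of 7 end joining, single-strand break and mismatch repair genes, MSH6 alone was DE in the main edgeR fit of SUM44. Of all genes, 6.39% were higher in LTED-A and 8.69% in LTED-B. XRCC6 and XRCC5, the Ku subunits that cap broken ends, were at 0.56 ± 0.12 and 0.46 ± 0.10 (XRCC6) and 0.07 ± 0.11 and 0.44 ± 0.10 (XRCC5) in LTED-A and LTED-B, and PRKDC, which encodes DNA-PKcs, at 0.46 ± 0.15 and 0.42 ± 0.13. None of the 3 was DE in the main edgeR fit. XRCC6 was called in LTED-A by DESeq2 (0.60) and with the near-identical replicates kept separate (0.62). PARP1, the sensor of single-strand breaks, was at 0.52 ± 0.09 and 0.53 ± 0.09 and its scaffold XRCC1 at 0.62 ± 0.12 (adjusted p = 0.00259) and 0.58 ± 0.11, short of the fold or the p threshold. XRCC1 was called in each variant by DESeq2 (0.67 and 0.62) and without the filter on low counts (0.64 and 0.59). The same held with SUM44PE added to the fit (0.65 and 0.60). MSH6, which recognizes mismatches, rose in LTED-B alone by 0.61 ± 0.08, just past the fold minimum, and this call was lost when any of SUM44F replicates 2 or 3 or of the LTED-B replicates was left out (0.58 to 0.64). MSH6 shares 22.7% of its exon bases with FBXO11 on the opposite strand, which changed by -0.30 in LTED-A and -0.04 in LTED-B. PMS2 was at 0.12 and 0.32. Its counts are uncertain because 15 pseudogenes, PMS2CL with 35307 counts over all libraries against 57562.5 for PMS2 itself, share much of its sequence.

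Between the SUM44 variants, 0 of 36 genes were DE and higher in LTED-B (3.86% of all genes) and 0 were lower (3.56%) by edgeR. At an unadjusted p below 0.05, 9 were higher and 7 were lower (34.6% of all genes in either direction), and DESeq2 called 1 gene lower (MDC1, -0.81). Without the averaged LTED-A sample 4 genes were DE. MDC1 (-1.13) was then lower and MSH6 (0.66), NBN (0.63) and RBBP8 (0.62) higher in LTED-B.

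SUM44PE was compared with SUM44F to see how far parental cultures of 1 line differ. In SUM44PE, 4 of 36 genes (11.1%) were DE and higher, against 2.85% of 27457 genes, and 0 were lower (2.72% of genes, 6 of 36 at an unadjusted p below 0.05, against 33.5% of all genes in either direction, and 0 by DESeq2), with a median of 0.15. FANCE rose by 0.78 ± 0.09, BARD1 by 0.72 ± 0.09, XRCC3 by 0.63 ± 0.06 and FANCI by 0.60 ± 0.07. FANCE, the core subunit that contacts FANCD2, had a mean of 11.8 ± 1.24 CPM in SUM44F, 11.7 ± 0.702 CPM in LTED-B and 20.2 ± 0.352 CPM in SUM44PE (SD, n = 3 each), and values of 13.3 and 15.2 CPM in LTED-A. The SUM44PE libraries lay above all others, and both LTED-A values lay above those of SUM44F without being DE. The count was 5 without SUM44F replicate 1, when FANCA (0.59) was DE as well, and 7 without SUM44PE replicate 1, and the call of FANCI was lost without SUM44PE replicate 2 (0.56). SUM44PE means lay between SUM44F and LTED means for RAD54L, BARD1, BLM, FANCI, FANCA, EXO1, BRCA1 and FANCG, as the plot by library shows.

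In MM134, FANCL fell in each of the 4 variants. FANCL (chr2:58159243-58241410) was at 67.5, 64.5 and 69.3 CPM in parental cells, and between 31.9 CPM in an LTED-D library and 39.2 CPM in an LTED-E library over all 12 LTED libraries. No LTED library reached the lowest parental value. On the log2 scale the change was -0.97 ± 0.04 in LTED-A (adjusted p = 3.67e-13), -0.89 ± 0.04 in LTED-B, -1.03 ± 0.04 in LTED-D and -0.84 ± 0.04 in LTED-E. The variants share the parental libraries and are not independent in this. The 40 genes nearest to FANCL on chromosome 2 had a median of -0.02, 0.05, -0.10 and 0.06 in the same comparisons. In SUM44 its values in SUM44F (41.0, 40.3 and 44.7 CPM) and LTED cells (38.5 to 49.3 CPM) overlapped.

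FANCB, which works beside FANCL, was at 22.6, 22.3 and 22.6 CPM in MM134 parental cells and at 15.5, 14.9 and 13.6 CPM in LTED-A, at 13.9, 13.6 and 14.0 in LTED-B, 16.0, 16.6 and 15.2 CPM in LTED-D and 14.9, 14.4 and 14.8 CPM in LTED-E. All LTED values lay below the parental ones. It fell by 0.61 in LTED-A, 0.70 in LTED-B and 0.61 in LTED-E on the log2 scale, and its value of -0.50 ± 0.05 in LTED-D was not DE. The call in LTED-A was lost without LTED-A replicate 3 (-0.56). Core genes other than FANCL and FANCB lay between -0.40 and 0.19.

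XRCC3 was the 1 gene of the list that was DE and higher in an MM134 variant. It was at 28.2, 26.6 and 28.7 CPM in parental cells and at 49.1, 47.1 and 49.8 CPM in LTED-A, at 36.2, 37.1 and 37.3 in LTED-B, 36.9, 40.4 and 37.8 CPM in LTED-D and 54.6, 56.3 and 57.3 CPM in LTED-E. Its change of 0.81 ± 0.04 in LTED-A (adjusted p = 2.78e-12) and 1.01 ± 0.04 in LTED-E (adjusted p = 1.18e-13) was DE, and 0.41 ± 0.04 in LTED-B and 0.46 ± 0.04 in LTED-D was under the fold minimum. XRCC3 (chr14:103697609-103715504) shares 76.7% of its exon bases with KLC1 on the opposite strand. Libraries were made with a stranded kit, but the strand setting of the count is not given in the sources used here. KLC1 changed by 0.00 in LTED-A and -0.31 in LTED-E, and by 0.21 and 0.32 in SUM44 LTED-A and LTED-B.

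**Figure D3:**
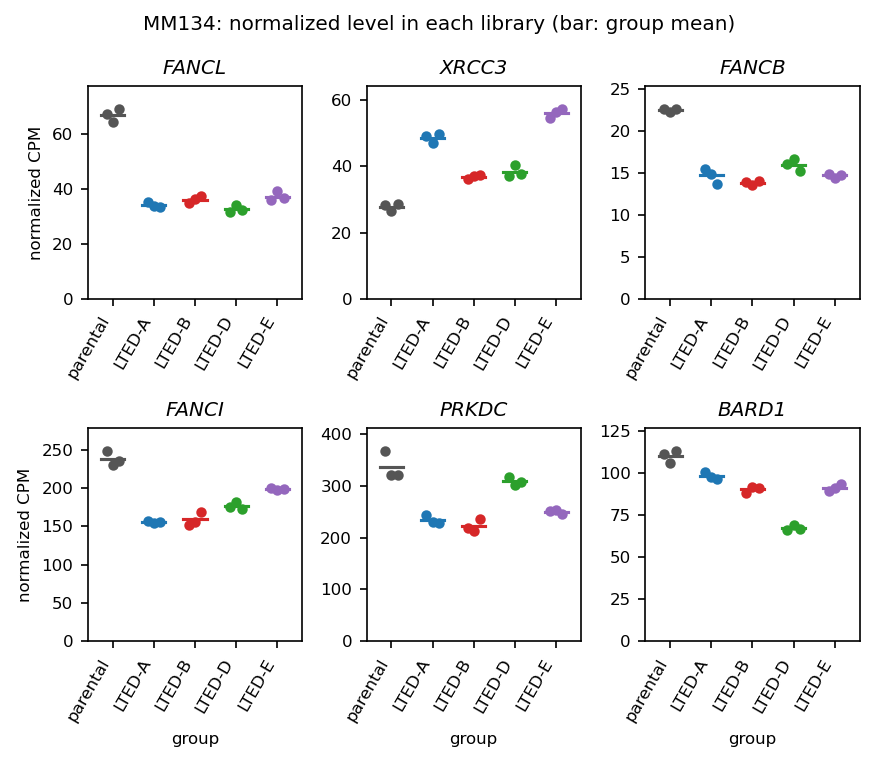
Normalized level (CPM, vertical axis from 0) of the 6 genes that were DE in at least 1 MM134 variant, in each library of parental cells and of LTED-A, -B, -D and -E (horizontal axis). Points are libraries and bars are group means. FANCL and FANCB lie below the parental points in every variant, XRCC3 lies above them in every variant, and BARD1 is lowest in LTED-D.

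Calls in a single variant made up the rest in MM134. FANCI was at 248.1, 229.7 and 234.9 CPM in parental cells and at 156.9, 153.9 and 155.7 CPM in LTED-A, a change of -0.61 ± 0.04 that was lost without parental replicate 1 (-0.58). It ranged from 152.2 to 168.8 CPM in LTED-B, from 172.7 to 182.0 CPM in LTED-D and from 197.9 to 199.7 CPM in LTED-E, all below the parental libraries but not DE. In LTED-B its value was -0.58 ± 0.04, and it was DE there without parental replicate 2 (-0.60), without parental replicate 3 (-0.59) or without LTED-B replicate 3 (-0.63). FANCI was also called in LTED-B by DESeq2, with RLE size factors and without the filter on low counts (-0.59 each). A fit of parental cells and LTED-B alone called it as well (-0.59). PRKDC was at 366.5, 320.5 and 320.6 CPM in parental cells and at 218.4, 212.1 and 236.0 CPM in LTED-B, a change of -0.60 ± 0.05 that was lost without parental replicate 1 (-0.53), LTED-B replicate 1 (-0.58) or LTED-B replicate 2 (-0.56). The other variants held 228.9 to 243.6 CPM (LTED-A), 301.8 to 316.9 CPM (LTED-D) and 245.1 to 252.5 CPM (LTED-E) of PRKDC. BARD1 was at 111.3, 106.4 and 113.2 CPM in parental cells, at 66.6, 69.2 and 66.8 CPM in LTED-D, and between 88.5 and 101.0 CPM in the other variants. Its fall of 0.71 on the log2 scale in LTED-D (adjusted p = 8.98e-13) lay outside the range of -0.28 to -0.16 in the other variants. The 40 genes nearest to BARD1 had a median of -0.19, -0.15, -0.23 and -0.21 in LTED-A, -B, -D and -E.

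Break sensing genes had medians of -0.32, -0.31, -0.13 and -0.14 in LTED-A, -B, -D and -E with 0 DE in either direction by edgeR and by DESeq2, although 5, 6, 5 and 6 of the 6 had an unadjusted p below 0.05, as did 56.8%, 53.1%, 55.6% and 55.4% of all genes. ATR had positive values in each variant, at 0.57 ± 0.03 in LTED-A, 0.29 ± 0.03 in LTED-B, 0.51 ± 0.03 in LTED-D and 0.56 ± 0.03 in LTED-E, and crossed the fold minimum in LTED-A without parental replicate 3 (0.59) or LTED-A replicate 3 (0.60). For ATR, and for FANCG at 0.08 to 0.16, every LTED library lay above every parental library, and neither gene was DE. More genes lay the other way without being DE. Every LTED library lay below every parental library for RAD54L, MRE11, NBN, ATM, TP53BP1, FANCE, FANCD2, PARP1 and XRCC1. The share of all genes without such overlap was not counted. PARP1 was at -0.52 and -0.55 in LTED-A and LTED-B and at -0.09 in LTED-D.

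Differences among the MM134 variants were tested directly. XRCC3 (0.61 on the log2 scale between the highest and the lowest variant, adjusted p = 2.15e-10) and EXO1 (0.60, adjusted p = 5.68e-10) were DE, 2 of 36 (5.56%) against 19.6% of the 26061 genes tested. EXO1 was highest in LTED-E, at 66.7, 67.7 and 65.3 CPM, and lowest in LTED-B, at 42.9, 43.4 and 45.1 CPM, with parental cells between them at 53.4, 48.2 and 50.9 CPM. The other 34 genes differed by 0.07 to 0.56, and CLSPN (0.56) crossed the fold minimum without LTED-B replicate 2 (0.60).

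The difference between the cell lines was tested in 1 fit as the mean change of the SUM44 variants minus that of the MM134 variants. It was DE and positive for 21 of 36 genes (58.3%), against 10.2% of the 29200 genes tested, and DE and negative for 0 (10.8% of genes, 1 of 36 at an unadjusted p below 0.05, against 50.4% of all genes in either direction, and 0 by DESeq2), with a median of 0.86 against -0.06 over all genes. The count was 20 without SUM44F replicate 1, when MRE11 (0.58) was no longer DE. FANCB differed most, at 1.77 ± 0.08 (adjusted p = 1.56e-14), with a fall in MM134 and a rise in SUM44. By role, 8 of 10 recombination genes, 4 of 7 Fanconi anemia core genes, 2 of 4 checkpoint genes and 2 of 6 break sensing genes were DE, as were FANCD2, FANCI, PARP1, XRCC1 and PRKDC. After FANCB, RAD54L followed with 1.58 ± 0.10, FANCI with 1.55 ± 0.06 and BARD1 with 1.54 ± 0.08. For RAD54L, the MM134 libraries held 30.0, 29.8 and 28.1 CPM in parental cells and 20.9 to 25.8 CPM in LTED cells, a shift that was not DE in any MM134 variant. FANCL differed by 1.03 ± 0.08 through its fall in MM134 and not through a rise in SUM44. XRCC3 (0.19 ± 0.05), which rose in variants of each line, and ATM (-0.02), NBN (0.00), FANCC (0.03) and RBBP8 (-0.06) were not DE in this test.

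**Figure D4:**
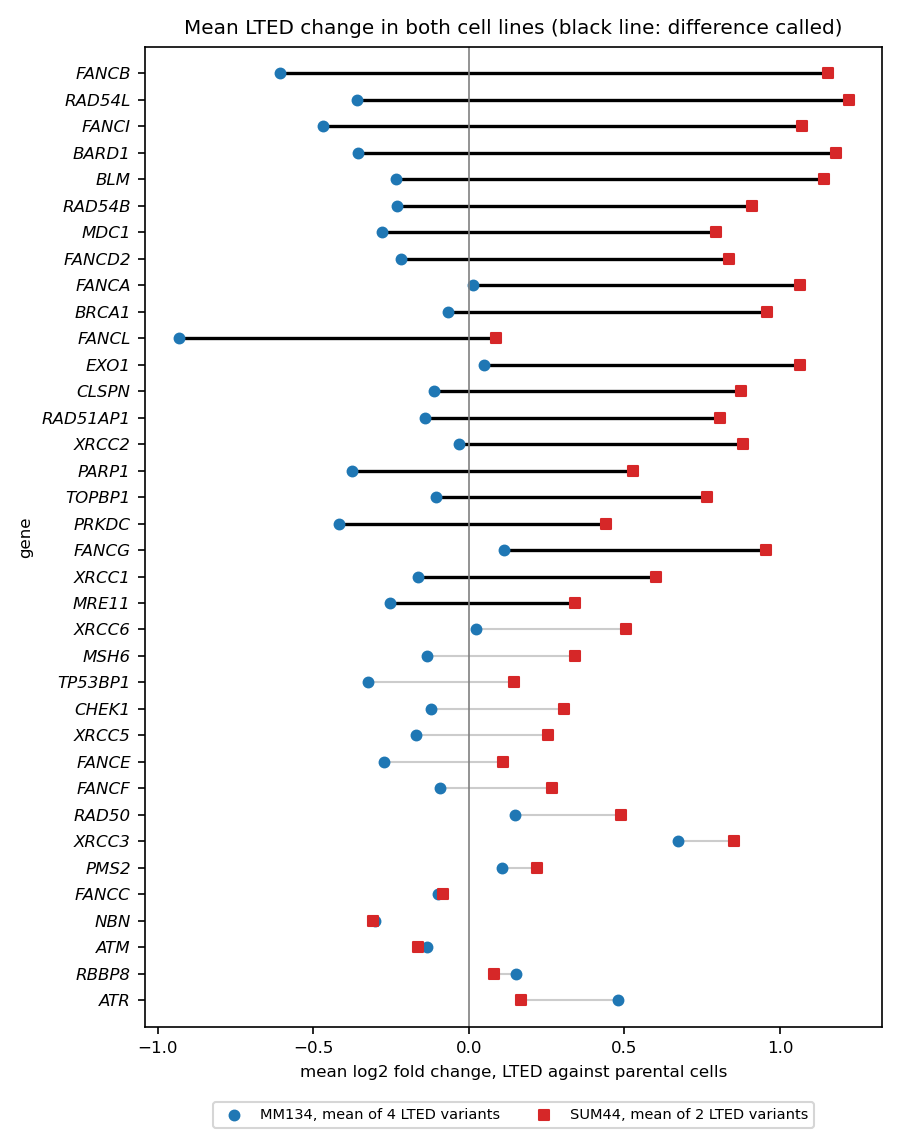
Mean log2 fold change against parental cells (horizontal axis) of each of the 36 genes (vertical axis, ordered by the tested difference) over the 4 MM134 LTED variants (blue circles) and both SUM44 LTED variants (red squares). Black lines mark the 21 genes whose difference was DE and gray lines the other 15. FANCB spans from -0.61 to 1.16, and FANCL spans from -0.93 to 0.09.

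The parental cells themselves differed in these genes. In SUM44F, 17 of 36 genes (47.2%) were DE and lower than in MM134 parental cells, against 18.9% of all genes, and 1 (2.78%, against 19.2%) was higher, with a median of -0.48 against 0.09 over all genes. Without SUM44F replicate 1 there were 17 lower and 1 higher as well. RAD54L (-2.30 ± 0.08), CLSPN (-2.12 ± 0.07), BARD1 (-2.11 ± 0.07) and TOPBP1 (-1.88 ± 0.05) were lowest, and PMS2 (0.63 ± 0.05), whose counts are uncertain, was higher. Cell line, medium history and library preparation cannot be told apart in this comparison. The SUM44F libraries enter it and the SUM44 LTED comparisons, which are therefore not independent.

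A wider list of 56 other repair and checkpoint genes was counted beside the 36. In SUM44 LTED-A, 16 were higher (28.6%, against 6.39% of all genes) and 2 lower, and in LTED-B 23 were higher (41.1%, against 8.69%) and 1 lower, with medians of 0.38 and 0.51. Without SUM44F replicate 1, an alternative applied to these lists after the data were seen, 14 and 20 were higher. The higher genes included 9 of 17 of recombination and crosslink repair in LTED-A and 10 of 17 in LTED-B, and 0 of 9 and 1 of 9 of nucleotide excision repair. Without that library the recombination counts were 7 and 9. POLQ, the polymerase of theta-mediated end joining, rose by 1.33 in LTED-A, and EME1, a partner of the nuclease MUS81, by 1.28 in LTED-A and 1.76 in LTED-B. UBE2T, the ubiquitin-conjugating enzyme that works with FANCL, rose by 1.30 in LTED-B. LIG4, the ligase of end joining, fell by 1.59 in LTED-A and 0.75 in LTED-B on the log2 scale, the latter a call that was lost without SUM44F replicate 1, and ERCC5, a nuclease of nucleotide excision repair, by 1.48 in LTED-A. In MM134, 1, 0, 1 and 0 of the 56 were higher and 5, 3, 1 and 1 were lower in LTED-A, -B, -D and -E. The share lower was 8.93%, 5.36%, 1.79% and 1.79%, each under that of all genes (9.82%, 7.75%, 7.95% and 10.3%), and the share higher was at most 1.79%. UNG, a uracil glycosylase, rose by 0.98 in LTED-D and LIG4 by 0.66 in LTED-A, and DMC1 (-1.09 in LTED-A) and RPA2 (-0.83 in LTED-B) fell. DMC1 is a recombinase of meiosis, and RPA2 coats single-stranded DNA.

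Cell cycle genes were higher, like the repair genes, in SUM44 LTED cells and SUM44PE, and lower in SUM44F against MM134 parental cells. In MM134 LTED cells the S phase list and the repair genes had similar medians, and the mitotic list had lower ones. The part of the cell cycle genes in the result was not tested. Of 14 genes of replication licensing and S phase, 12 were higher in SUM44 LTED-A and 12 in LTED-B, with medians of 0.96 and 0.97, and of 10 mitotic genes 9 and 8 were higher, with medians of 1.05 and 1.20, against 6.39% and 8.69% of all genes higher. Without SUM44F replicate 1 these counts were 11 and 12 of 14 and 9 and 7 of 10. In MM134, the S phase list had medians of -0.23, -0.25, -0.05 and 0.10 and the mitotic list of -0.54, -0.36, -0.42 and -0.08 in LTED-A, -B, -D and -E, with 0 higher in each and 1, 0, 1 and 0 (S phase) and 4, 2, 3 and 1 (mitosis) lower. The lower share was at most 7.14% of the S phase list and 10.0% to 40.0% of the mitotic list, against 9.82%, 7.75%, 7.95% and 10.3% of all genes. In the main list of repair genes it was 8.33%, 8.33%, 5.56% and 5.56%, below the mitotic share in each variant. The medians of that main list were -0.25, -0.24, -0.10 and -0.01, above those of the mitotic list in each variant. They were lower than the S phase medians in LTED-A, -D and -E and higher in LTED-B. In SUM44PE against SUM44F, 3 of 14 and 4 of 10 were higher (3 and 3 without SUM44F replicate 1), against 2.85% of all genes. SUM44F was lower than MM134 parental cells in 13 of 14 and 10 of 10 (13 and 9 without that library), against 18.9% of all genes. In bulk RNA, more cells in S or G2 phase and more RNA of these genes per cell cannot be told apart.

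**Figure D5:**
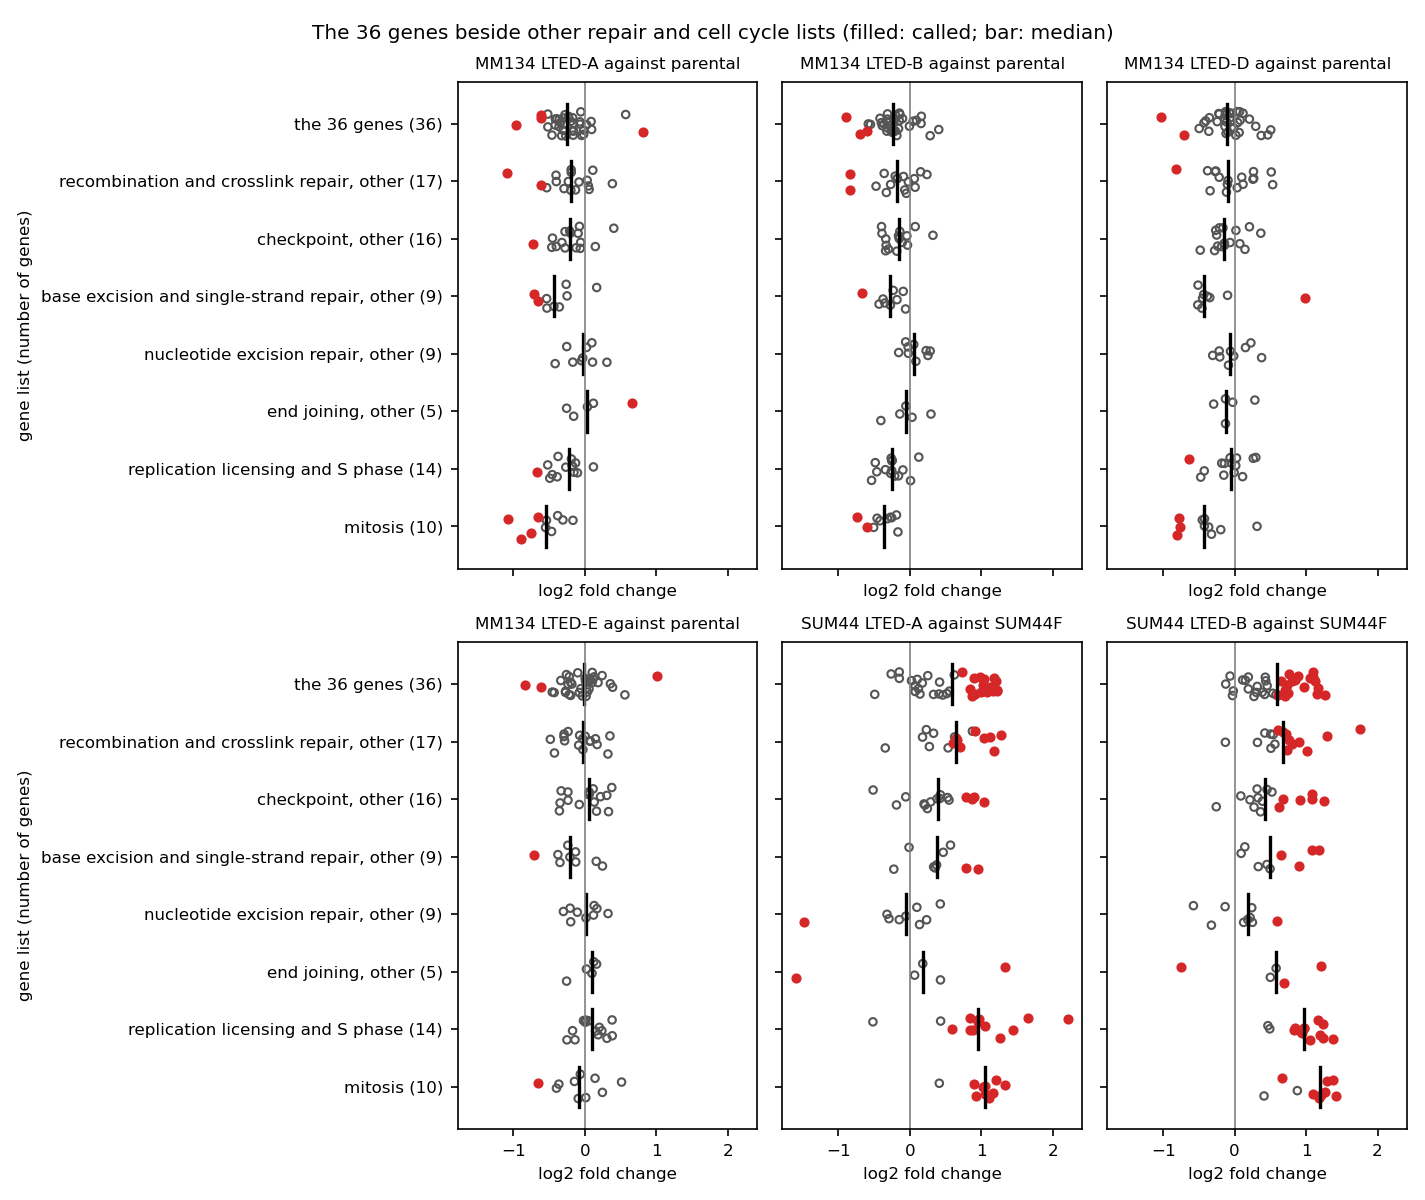
Log2 fold change (horizontal axis) of the 36 genes and of the other repair and cell cycle lists (vertical axis, with the number of genes) in each LTED variant against its parental cells. Filled points are DE genes, open points are not, and bars are medians. In both SUM44 panels the S phase and mitosis medians (0.96 to 1.20) lie above that of the 36 genes (0.59), and in the MM134 panels they run from -0.54 to 0.10.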

How the data were processed

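RNA from 27 wells, 3 in each of 9 groups, was sequenced by the authors with a stranded total RNA kit on an Illumina HiSeq and quantified with Salmon 0.6.0 (hg38, Ensembl annotation). The deposited values are estimated counts per gene, not normalized. Whether the strand of the reads was used in counting is not given in the sources used here. The 36 genes and all other lists were chosen with earlier results of these data known. Symbols and positions came from GENCODE v44, which held 56434 of the 60619 genes, and promoters from RefSeq.

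Estimated counts were rounded to whole numbers, filtered with filterByExpr, scaled by TMM and tested with edgeR 4.0.16 (R 4.3.3) by the quasi-likelihood F-test, two-sided, with Benjamini-Hochberg adjustment over all genes tested. MM134, SUM44, SUM44 with SUM44PE, and both cell lines were fitted separately (26061, 26834, 27457 and 29200 genes). A gene was called at a fold change above 1.5 and an adjusted p below 0.001, and the difference among MM134 variants was called on the distance between the highest and lowest variant. The SE is the log2 fold change divided by the square root of F. MM134 and SUM44 levels were scaled in separate fits, and only the fit of both cell lines compares their levels. SUM44 LTED-A replicates 2 and 3 agreed within sampling noise by a chi-square over genes and were averaged, whereas the other 26 pairs of replicates differed (chi-square over degrees of freedom 2.35 to 58.1). Library totals ran from 28583554 to 134882175 counts. Counts of single genes went down to 260 for RAD54L and 283 for FANCB in a library, where sampling noise adds to the spread between wells. Alternatives were DESeq2 1.42.0, RLE size factors, no filter on low counts, other thresholds, each library left out, and a replicate block. Same-numbered wells did not deviate together (r = -0.40 to 0.31 in MM134 and -0.25 to 0.10 in SUM44), and were not paired. All genes of the list are described, with values by library for the 6 genes called in MM134 and the 10 with the largest mean change in SUM44. Values by library of MDC1, RAD54L (MM134), FANCL (SUM44) and EXO1 (MM134) were added after they were seen. The fitting was tested on simulated data with known changes, of which a smaller share was recovered in SUM44 than in MM134.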

Additional observations from a re-analysis of the deposited data

Results flagged for a closer look

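For 21 of the 36 genes the LTED change differed between the cell lines by the test of the difference itself (edgeR's quasi-likelihood test, fold above 1.5, adjusted p below 0.001), each time toward higher values in SUM44. Among recombination genes the difference on the log2 scale was 1.58 for RAD54L, 1.54 for BARD1, 1.39 for BLM, 1.15 for RAD54B, 1.03 for BRCA1, 1.02 for EXO1, 0.96 for RAD51AP1 and 0.92 for XRCC2. The Fanconi anemia genes FANCB (1.77), FANCI (1.55), FANCD2 (1.06), FANCA (1.06), FANCL (1.03) and FANCG (0.85) differed as well, FANCL through its lower level in MM134 LTED cells. Checkpoint and break sensing genes gave 1.08 for MDC1, 1.00 for CLSPN, 0.88 for TOPBP1 and 0.60 for MRE11. The remaining genes were PARP1 (0.91), PRKDC (0.86) and XRCC1 (0.78). None of them was DE in SUM44 LTED-A or LTED-B in the main edgeR fit, though DESeq2 called XRCC1 in both. PRKDC was DE and lower in MM134 LTED-B. MRE11 lay just past the fold minimum and was lost when MM134 parental replicate 1 (0.58), SUM44F replicate 1 (0.58), SUM44F replicate 2 (0.56) or the averaged SUM44 LTED-A sample (0.56) was left out. MDC1 rests in part on SUM44 LTED-A, whose samples held 92.1 and 57.3 CPM.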

How the results depend on the processing

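Of 92 calls over all comparisons, leaving out a library lost 9 and gained 13, and no call changed direction under any alternative run. With an adjusted p below 0.05 and no minimum fold, 28, 34, 23 and 26 of the 36 genes were called in MM134 LTED-A, -B, -D and -E, 26 and 29 in SUM44 LTED-A and -B, 21 in SUM44PE, 10 between SUM44 variants, 35 among MM134 variants and 33 between parental cells. The share of all genes at that threshold was 53.2%, 48.4%, 51.4% and 51.0%, then 36.1% and 45.8%, 23.1%, 24.2%, 60.3% and 65.3%. At a 2-fold minimum these were 0, 0, 1 and 1, then 11 and 7, 0, 0, 0 and 12, and 12 for the difference between cell lines. The share of all genes at 2-fold was 12.5%, 9.88%, 10.7% and 12%, then 8.66% and 9.93%, 2.8%, 4.43%, 11.2% and 27.5%. For the difference between cell lines it was 13.8%. SUM44PE had 6 genes without a filter on low counts. Between SUM44 variants, 1 gene (MDC1) was called without the filter, by DESeq2 and with SUM44PE added to the fit. Leaving out each library gave 3 to 5, 2 to 4, 2 and 3 genes in MM134 LTED-A, -B, -D and -E, 16 to 18 in SUM44 LTED-A and 16 to 18 in LTED-B, 3 to 7 in SUM44PE, 0 to 4 between SUM44 variants, 2 to 3 among MM134 variants, 20 to 22 for the difference between cell lines and 18 between parental cells. In the fit of SUM44F and LTED-A alone, 12 genes were called. A replicate block lost 0 calls and gained 0 (17 and 18 genes in SUM44 LTED-A and -B). The cause of these changes was not tested.

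Wells of 1 culture give a small spread that says nothing of other derivations. Genes that overlap another gene (among them XRCC3, RAD50, RAD54B, TP53BP1, MSH6, RAD54L and FANCA) or have pseudogenes (such as PMS2) carry an error that the SE does not hold. SUM44 LTED-A has 2 samples and the widest SE of the LTED variants. A gene that was not DE is not thereby shown to be unchanged.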
